A study of Mus musculus with 9 samples.

Results

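The Dlk1-Meg3 domain is a cluster of imprinted genes on distal mouse chromosome 12, and its expression was followed in D3 mouse embryonic stem (ES) cells in which the lysosomal protein LAMP2A was overexpressed. The domain was represented by 6 genes chosen by name, Dlk1, Meg3, Rtl1, Rian, Mirg and Dio3, of the 24421 genes in the count table. All 9 libraries were RNA sequencing libraries from D3 cells, an established ES cell line, grown without feeder cells on gelatin in serum with ESGRO, a preparation of the cytokine LIF that keeps ES cells undifferentiated. The VT group (3 libraries) stably carried the empty pCDH vector and was otherwise untreated. The LAMP2A group (3 libraries) overexpressed LAMP2A, a splice form of Lamp2 that acts as the lysosomal receptor of chaperone-mediated autophagy, and was also untreated. The LAMP2A+DM-αKG group (3 libraries) overexpressed LAMP2A and received DM-αKG, a membrane-permeable ester of α-ketoglutarate, at 4 mM for 72 h; these are called treated cells below. α-Ketoglutarate is a cofactor of the TET and histone demethylase enzymes. The labels do not say whether the overexpressing cells were 1 clone or a pool, nor whether replicate libraries were grown as separate cultures. The spread behind every p-value is therefore that of these libraries and may be technical.

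Imprinted genes are expressed mainly from the allele of 1 parent. In this domain the protein-coding genes Dlk1, Rtl1 and Dio3 are expressed from the paternal chromosome, and the long noncoding RNAs Meg3, Rian and Mirg from the maternal chromosome, under the control of an intergenic region between Dlk1 and Meg3 that is methylated on the paternal allele. Rian and Mirg are the host transcripts of box C/D small nucleolar RNAs (snoRNAs) and of a large microRNA cluster, and the state of the domain is known to vary between mouse pluripotent cell lines. The counts used here do not separate the parental alleles.

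All 6 genes lie on chromosome 12 of build GRCm38, and their intervals are taken from the GENCODE M21 annotation. Dlk1 (chr12:109452823-109463336, plus strand, protein coding) comes first, and Meg3 (chr12:109541001-109571726, plus strand, long noncoding) starts 88.2 kb after the Dlk1 start. Rtl1 (chr12:109589193-109600330, minus strand, protein coding) runs against the direction of the others. Rian (chr12:109603940-109661716) and Mirg (chr12:109729764-109749460), both noncoding and on the plus strand, start 62.9 kb and 188.8 kb after the Meg3 start. Dio3 (chr12:110279068-110281097, plus strand, protein coding) starts 738.1 kb after it, with the noncoding Dio3os (chr12:110275385-110278172, minus strand) beside it.

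The 250 bases before the RefSeq starts of Meg3 and Rian (build GRCm38.p6) are shown because these RNAs were the most abundant of the domain. RefSeq held such an entry for 5 of the 6 genes, and for Meg3 it held 2, of which the first is shown. Capitals mark the matches to any of 4 short motifs, searched on both strands. The cAMP response element was searched as TGACGTCA and the TATA box as TATAAA. The CCAAT box was searched by the letters of its name. The core of the motif of the imprint protein ZFP57 was searched as TGCCGC. The Meg3 window spans chr12:109540746-109540995 and the Rian window chr12:109603695-109603944, both on the plus strand.
Meg3: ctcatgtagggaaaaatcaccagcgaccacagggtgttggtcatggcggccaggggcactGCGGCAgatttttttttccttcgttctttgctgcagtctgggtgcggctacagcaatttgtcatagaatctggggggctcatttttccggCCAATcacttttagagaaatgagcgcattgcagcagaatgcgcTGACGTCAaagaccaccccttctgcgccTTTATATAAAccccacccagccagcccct
Rian: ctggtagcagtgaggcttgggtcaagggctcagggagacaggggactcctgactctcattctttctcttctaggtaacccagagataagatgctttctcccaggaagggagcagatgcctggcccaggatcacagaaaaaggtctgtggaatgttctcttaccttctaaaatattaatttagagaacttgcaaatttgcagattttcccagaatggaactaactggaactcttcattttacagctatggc
The Meg3 window held 10 CpG dinucleotides against a median of 6 over 32841 RefSeq windows of this length, and the Rian window held 0. The window before the second Meg3 start (chr12:109545148-109545397) held 0 CpG and none of the motifs. In the Meg3 window TGACGTCA lay 57 bases before the start, overlapping TATAAA matches on both strands lay 25 and 29 bases before it, CCAAT lay 100 bases before it and TGCCGC, on the minus strand, 190 bases before it. TGACGTCA was found in 1.55% of all windows, TATAAA in 12.4%, CCAAT in 33.9% and TGCCGC in 8.68%. No searched motif was found in the Rian window or in that of Dlk1, which had 8 CpG. The Dio3 window had 21 CpG, 1 TATAAA and 2 CCAAT matches, and the Mirg window 10 CpG and 1 CCAAT match. The RefSeq start of Mirg lies after the GENCODE start given above, so that its window (chr12:109734731-109734980) is inside the Mirg interval and overlaps microRNA genes. The Dio3 window (chr12:110278980-110279229) also runs past the GENCODE start of Dio3. A match describes the sequence and does not show binding.

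The microRNAs of the domain are its best known small products. RefSeq lists 114 mature microRNA entries, with 113 different sequences, from 61 hairpin genes between Dlk1 and Dio3, with 104 different seeds (bases 2 to 8, in capitals) and 9 seeds that 2 different mature sequences share. The first 5 shown lie opposite Rtl1 and are fully complementary to its transcript, and the next pair, from inside Mirg, has a common seed. The last pair comes from Mir3072, the microRNA row with the most counts.
mmu-miR-431-5p: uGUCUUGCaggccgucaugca
mmu-miR-433-3p: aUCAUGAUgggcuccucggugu
mmu-miR-127-3p: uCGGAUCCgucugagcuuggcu
mmu-miR-434-3p: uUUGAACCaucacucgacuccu
mmu-miR-136-5p: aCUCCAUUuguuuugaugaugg
mmu-miR-453: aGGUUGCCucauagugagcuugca
mmu-miR-496a-5p: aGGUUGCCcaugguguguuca
mmu-miR-3072-5p: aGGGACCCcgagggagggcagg
mmu-miR-3072-3p: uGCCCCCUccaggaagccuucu
The 5 microRNAs opposite Rtl1 have 5 different seeds. These libraries were made from polyadenylated RNA and did not measure mature microRNAs. Reads counted for a hairpin gene can come from its host or primary transcript.

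Library totals ran from 23636074 to 32809875 counts, and 14513 genes passed the filter on low counts and were tested. Lamp2, the overexpressed gene, stood at 58.2 ± 1.64 CPM (counts scaled to the size of the library; mean ± SD, n = 3) in VT cells, 404.4 ± 2.24 CPM in LAMP2A cells and 97.2 ± 2.00 CPM in treated cells, so that the treated cells also had much less Lamp2 RNA than the untreated overexpressing cells, and its part in the values below was not tested. The row covers all splice forms of the gene. The labels do not say whether the treated and untreated overexpressing cells were the same line, so that treatment and a difference between lines cannot be told apart in the values of treated cells. Most genes differed between the groups. At a Benjamini-Hochberg adjusted p under 0.05 by edgeR's quasi-likelihood test, 85.1% of tested genes differed between LAMP2A and VT, 83.2% between treated cells and LAMP2A, and 58.7% between treated cells and VT. A passing test was therefore common, and fold sizes are given beside it. The 3 comparisons share groups, so they are not independent of one another. Unless VT is named, folds of treated cells are against LAMP2A cells, and those of LAMP2A cells are against VT.

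Of 6 genes, 5 passed the filter on low counts, and all 5 were higher in LAMP2A cells than in VT cells, where 43% of all tested genes were. The increase was at least 2-fold for Dlk1, Dio3 and Meg3, and 19.8% of tested genes rose by as much. Their median log2 fold change was 1.20, against 0.00809 over all tested genes. In treated cells all 5 were lower than in LAMP2A cells (42.1% of tested genes were), 4 of them by at least 2-fold (17.6% were). Their median was -1.48, against -0.00125 over all tested genes. Rtl1, the remaining gene, had too few counts to be tested. The LAMP2A and VT libraries did not overlap for 4 of the 5 genes, with Mirg the exception, and 85% of tested genes had groups that did not overlap. Treated and LAMP2A libraries did not overlap for any of the 5 (85.5% of tested genes did not).

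**Figure D1:**
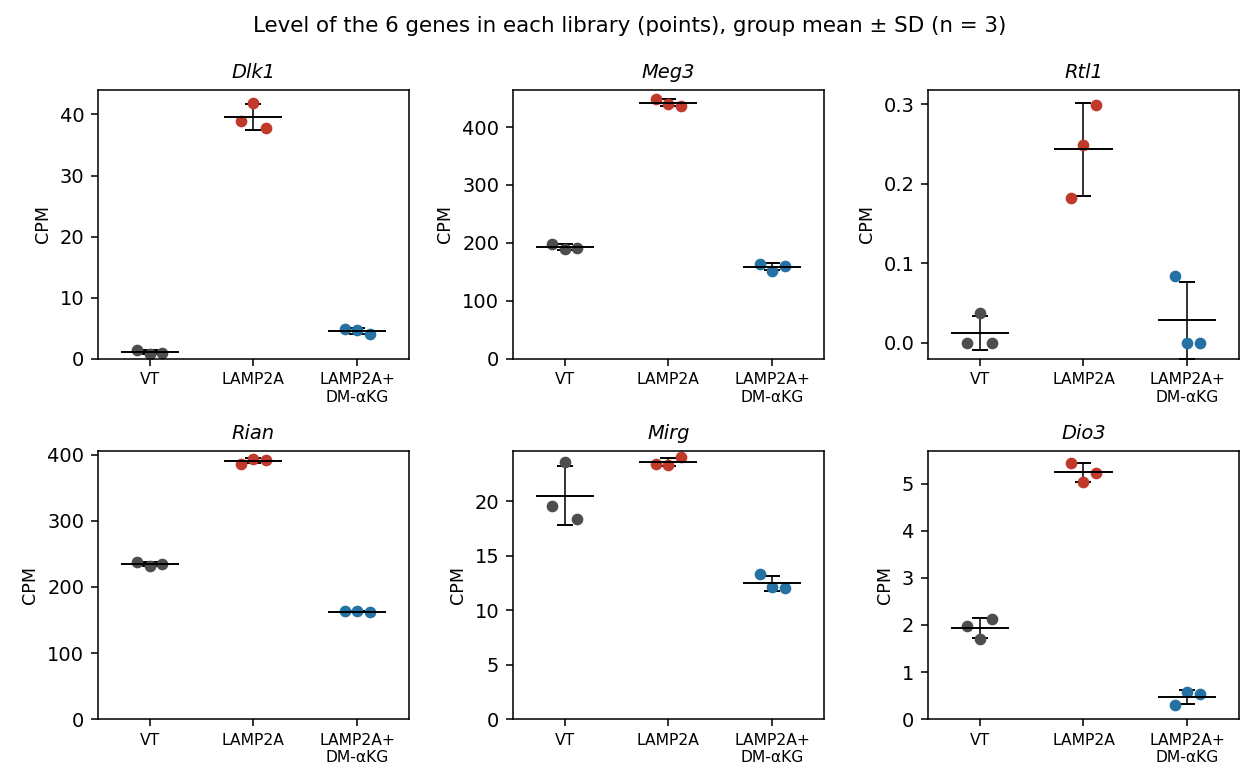
CPM of each gene (vertical axes, linear) in each of the 9 libraries (points) by group, with the mean (line) and SD (bars, n = 3). Meg3, Rian and Dio3 were highest in LAMP2A and lowest in LAMP2A+DM-αKG, Dlk1 was lowest in VT, and the VT and LAMP2A points of Mirg overlapped.

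Meg3, a noncoding RNA with tumour-suppressor properties, was the most abundant RNA of the domain in LAMP2A cells. Its 3 libraries (replicates 1, 2 and 3) read 198.0, 188.7 and 191.8 CPM in VT cells, 449.0, 440.0 and 436.9 CPM in LAMP2A cells, and 164.2, 151.7 and 159.8 CPM in treated cells. The 3 groups did not overlap, with LAMP2A on top and the treated cells below VT. Meg3 rose 2.29-fold from VT to LAMP2A (log2 fold change 1.20, SE 0.04, edgeR adjusted p = 5.11e-28). It was 2.79-fold lower in treated cells than in LAMP2A cells (log2 -1.48, SE 0.04, edgeR adjusted p = 1.47e-30).

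Rian, the host transcript of the domain's snoRNAs, followed the same order with smaller steps. It read 237.7, 232.2 and 234.2 CPM in VT cells, 386.4, 394.0 and 391.6 CPM in LAMP2A cells, and 162.9, 163.6 and 161.4 CPM in treated cells. The spread within each group was below 4 CPM (SD 2.77, 3.86 and 1.10), and the groups did not overlap. Rian rose 1.66-fold in LAMP2A cells (log2 0.74, SE 0.03, edgeR adjusted p = 5.8e-23) and was 2.40-fold lower in treated cells (log2 -1.26, SE 0.04, edgeR adjusted p = 9.77e-30).

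Mirg, the host transcript of the distal microRNA cluster, barely differed between VT and LAMP2A. It read 19.6, 23.6 and 18.4 CPM in VT cells against 23.5, 23.3 and 24.05 CPM in LAMP2A cells, so that VT replicate 2 lay among the LAMP2A values. The difference of 1.15-fold (log2 0.20, SE 0.06) passed the test with an edgeR adjusted p of 0.00505. Without VT replicate 3 it was 0.12 on the log2 scale with an edgeR adjusted p of 0.0813, and did not pass. In treated cells Mirg read 13.3, 12.1 and 12.0 CPM, below every library of the other groups. It was 1.90-fold lower there than in LAMP2A cells (log2 -0.92, SE 0.07, edgeR adjusted p = 1.37e-13).

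Among the paternally expressed genes, Dlk1, a transmembrane protein related to the Notch ligands that restrains adipocyte differentiation, had the largest increase of the domain. It read 1.44, 0.813 and 1.00 CPM in VT cells, 39.0, 41.9 and 37.9 CPM in LAMP2A cells, and 4.80, 4.74 and 4.02 CPM in treated cells. Dlk1 was thus nearly silent in VT cells, clearly expressed in LAMP2A cells and intermediate in treated cells, with no overlap between groups. It rose 36.8-fold from VT to LAMP2A (log2 5.20, SE 0.17, edgeR adjusted p = 6.8e-32), place 351 from the top of the 14513 tested genes. The VT libraries together held 84 Dlk1 counts, which gives the fold a 95% counting interval of 29.8 to 46.5. In treated cells it was 8.83-fold lower than in LAMP2A cells (log2 -3.14, SE 0.09, edgeR adjusted p = 3.48e-29).

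Dio3, the selenoenzyme that inactivates thyroid hormone, was weakly expressed and lowest in treated cells. It read 1.97, 1.70 and 2.12 CPM in VT cells, 5.44, 5.03 and 5.23 CPM in LAMP2A cells, and 0.294, 0.578 and 0.532 CPM in treated cells. The groups did not overlap, and the treated cells lay below VT. Dio3 rose 2.71-fold in LAMP2A cells (log2 1.44, SE 0.14, edgeR adjusted p = 1.55e-12). It was 10.9-fold lower in treated cells than in LAMP2A cells (log2 -3.45, SE 0.25, edgeR adjusted p = 4.56e-19), where 38 counts in the treated libraries give a 95% counting interval of 7.90 to 15.7.

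Rtl1, a gene derived from a retrotransposon and needed in placenta and muscle, was close to the detection limit. Its counts were 0, 1 and 0 in VT cells, 6, 8 and 8 in LAMP2A cells, and 2, 0 and 0 in treated cells. Every LAMP2A library held more counts than any other library. The count ratio of LAMP2A to VT was 18.7 (95% counting interval 3.03 to 773.3), and that of LAMP2A to treated cells was 9.56 (2.35 to 83.8). These intervals cover counting error only. With no filter on low counts edgeR gave log2 3.82 (adjusted p = 1.39e-04) and -3.04 (adjusted p = 6.41e-04), and between treated cells and VT 0.78 (adjusted p = 0.75). The authors' deposited table gave log2 fold changes of 4.14 and -3.24 for the first pair, with adjusted p of 0.00382 and 0.0123 (DESeq2).

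LAMP2A+DM-αKG and VT differed in opposite directions for Dlk1 and the other genes. Of the 5 tested genes, 1 was higher (29.3% of all tested genes were) and 4 were lower (29.3% as well), and none of the 5 had overlapping groups (61.2% of tested genes did not overlap). Dlk1 stayed 4.17-fold above VT (log2 2.06, SE 0.19, edgeR adjusted p = 8.92e-13), place 113 from the top, and 3.93% of genes were at least 2-fold higher. Dio3 was 4.03-fold below VT (log2 -2.01, SE 0.26, edgeR adjusted p = 3.47e-09), place 53 from the bottom, and 2.63% of genes were at least 2-fold lower. The noncoding RNAs lay below VT by smaller factors, Mirg by 1.65-fold (log2 -0.72, SE 0.07), Rian by 1.44-fold (log2 -0.53, SE 0.04) and Meg3 by 1.22-fold (log2 -0.28, SE 0.04). Their edgeR adjusted p were 6.19e-10, 3.52e-17 and 3.04e-09. The median of the 5 genes was -0.53, against 0.00297 over all tested genes.

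**Figure D2:**
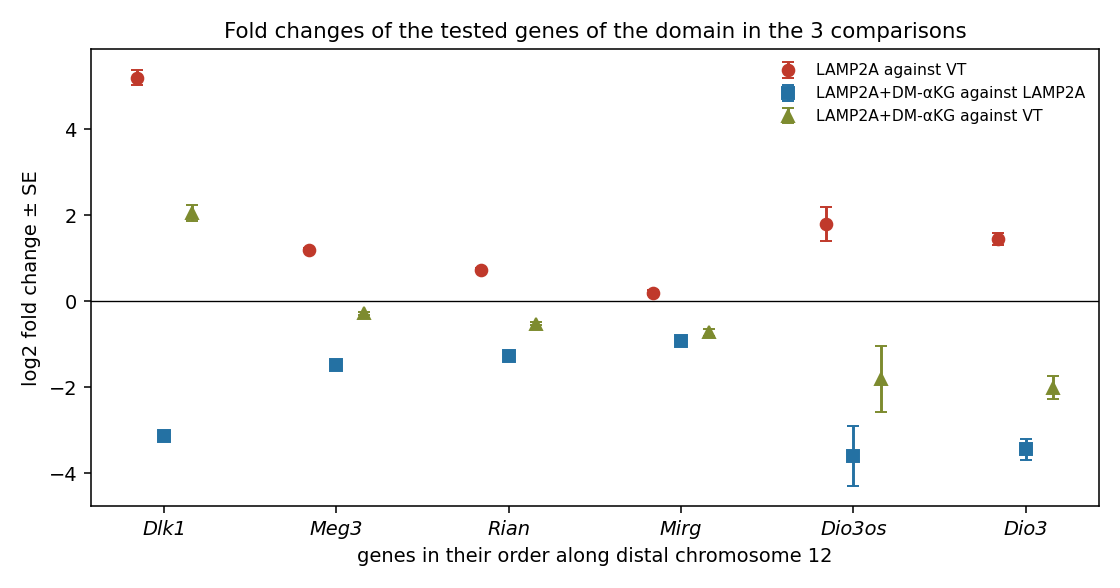
Log2 fold change (vertical axis) with its SE (bars) of the 5 tested genes and of Dio3os, in chromosomal order, for LAMP2A against VT (circles), LAMP2A+DM-αKG against LAMP2A (squares) and LAMP2A+DM-αKG against VT (triangles). Against VT, LAMP2A+DM-αKG was higher for Dlk1 (2.06) and lower for Meg3, Rian, Mirg, Dio3os and Dio3 (-0.28 to -2.01).

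Levels of different genes were compared per kilobase of exon (GENCODE M21). In VT cells Rian came first with 12.9 ± 0.15 CPM per kb (mean ± SD, n = 3), followed by Meg3 with 10.7 ± 0.26, Mirg with 2.81 ± 0.37, Dio3 with 0.952 ± 0.105, Dlk1 with 0.192 ± 0.057 and Rtl1 with 0.00194 ± 0.00336. In LAMP2A cells Meg3 led with 24.4 ± 0.35 CPM per kb, before Rian with 21.4 ± 0.21, then Dlk1 with 7.0 ± 0.37. Mirg (3.24 ± 0.05), Dio3 (2.58 ± 0.10) and Rtl1 (0.0383 ± 0.0092 CPM per kb) followed. In treated cells Rian (8.92 ± 0.06 CPM per kb) and Meg3 (8.77 ± 0.35) did not differ beyond their spread, and Mirg (1.71 ± 0.10), Dlk1 (0.799 ± 0.076), Dio3 (0.231 ± 0.075) and Rtl1 (0.00441 ± 0.00764) came below. Thus Dlk1 stood below Dio3 in VT cells and above Dio3 and Mirg in LAMP2A cells. The order depends on the transcript models behind the exon lengths.

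The 3 noncoding RNAs did not change in proportion. Ratios of counts within a library, which do not depend on scaling between libraries, separated all 3 groups. Rian counts were 120.1 to 123.1% of Meg3 counts in VT cells, 86.1 to 89.6% in LAMP2A cells and 99.2 to 107.8% in treated cells. The log2 ratio of Rian to Meg3 was 0.28 ± 0.02 (SD, n = 3) in VT cells, -0.18 ± 0.03 in LAMP2A cells and 0.04 ± 0.06 in treated cells. Mirg counts were 9.58 to 12.5% of Meg3 counts in VT cells, 5.23 to 5.50% in LAMP2A cells and 7.51 to 8.10% in treated cells. Both host transcripts were thus lowest relative to Meg3 in LAMP2A cells. Dlk1 counts ran the other way, 0.431 to 0.727% of Meg3 counts in VT cells, 8.67 to 9.53% in LAMP2A cells and 2.52 to 3.12% in treated cells. For each of the 3 ratios and each pair of groups the exact two-sided permutation p was 0.1, the smallest that 3 against 3 libraries allow, so that this design cannot reach 0.05; adjusted over the 9 comparisons it is also 0.1.

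**Figure D3:**
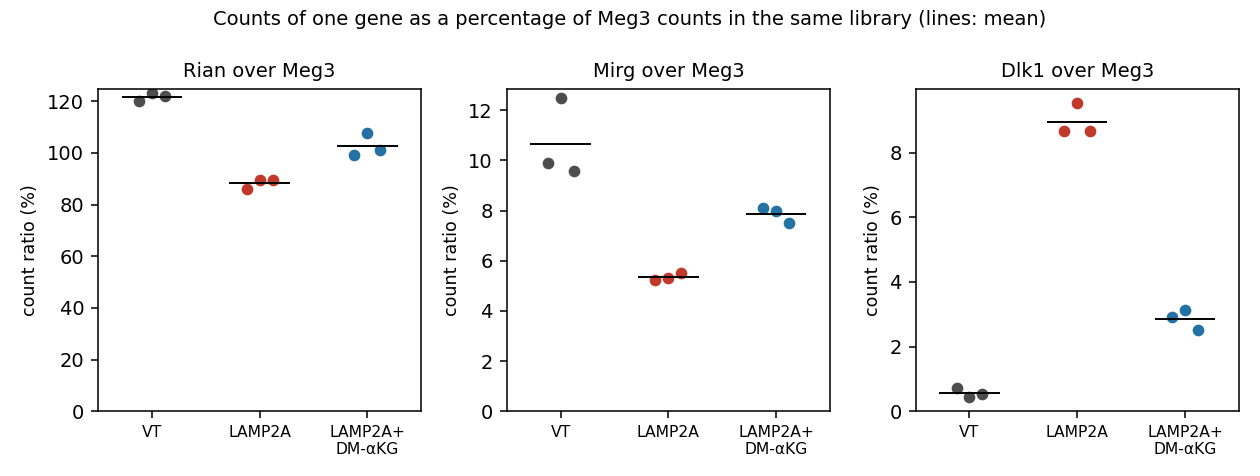
Counts of Rian, Mirg and Dlk1 as a percentage of Meg3 counts in the same library (vertical axes, linear from 0) for the 9 libraries (points) by group, with the mean as a line. Rian and Mirg were lowest relative to Meg3 in LAMP2A (86.1 to 89.6% and 5.23 to 5.50%), where Dlk1 was highest (8.67 to 9.53%).

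Other transcripts inside the domain were also counted. Dio3os, a noncoding RNA transcribed away from Dio3, moved with Dio3. Its counts were 9, 6 and 3 in VT cells, 35, 22 and 17 in LAMP2A cells, and 2, 1 and 2 in treated cells, with no overlap between the groups. It rose 3.45-fold in LAMP2A cells (log2 1.79, SE 0.40, edgeR adjusted p = 2.51e-05), and the treated cells were lower than LAMP2A by 12.1-fold (log2 -3.59, SE 0.70, edgeR adjusted p = 2.28e-08) and lower than VT by 3.49-fold (edgeR adjusted p = 0.0204).

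A row inside Rtl1 went against the tested genes of the domain. The row 6430411K18Rik, named here after its values were seen, lies inside Rtl1 (RefSeq, chr12:109591537-109592851), and RefSeq gives it the synonym PEG11as. Its counts were 46, 58 and 52 in VT cells, 41, 23 and 14 in LAMP2A cells, and 36, 43 and 46 in treated cells. At 0.828 ± 0.375 CPM (n = 3) the LAMP2A libraries were the lowest and the most spread, below 1.99 ± 0.135 CPM in VT cells and 1.57 ± 0.0776 CPM in treated cells, with no overlap between groups. It was 2.34-fold lower in LAMP2A cells than in VT cells (log2 -1.23, SE 0.22, edgeR adjusted p = 2.41e-06) and 1.84-fold higher in treated cells (log2 0.88, SE 0.23, edgeR adjusted p = 5.27e-04). Against VT the treated cells stood at log2 -0.35 (edgeR adjusted p = 0.114). Because the strand setting of the counting is not given in the sources used here, reads of this row and of Rtl1 cannot be told apart with certainty, and the RefSeq interval of Rtl1 (chr12:109564900-109604418) also overlaps Meg3 and Rian.

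The small RNA genes had few counts. Of 61 microRNA rows in the domain 26 had no count in any library, and all 61 together held 421 counts over the 9 libraries. Rows of microRNA and snoRNA genes inside Mirg (14 rows) summed to 21, 24 and 21 counts in VT cells, 57, 61 and 55 in LAMP2A cells and 17, 22 and 23 in treated cells. On the CPM scale they were 2.24-fold higher in LAMP2A cells than in VT cells without overlap (exact permutation p = 0.1, two-sided, the smallest possible), whereas the Mirg row itself differed by 1.15-fold and overlapped. Mir3072, named above, is 1 of these 14 rows, so that its values are not separate from their sum. It held 35 of the 66 counts in VT cells, 78 of 173 in LAMP2A cells and 30 of 62 in treated cells. Mir3072 rose 1.89-fold in LAMP2A cells (log2 0.92, SE 0.30, edgeR adjusted p = 0.00315) and was 2.24-fold lower in treated cells (edgeR adjusted p = 4.59e-04). How reads shared by a host gene and a row inside it were counted is not given in the sources used here.

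Rows inside Rian other than AF357359 (9 rows) totalled 69 counts in VT cells, 159 in LAMP2A cells and 79 in treated cells, 1.95-fold higher in LAMP2A cells than in VT cells (exact permutation p = 0.1, two-sided). AF357359, a 30-base snoRNA entry inside Rian named for its high count, held 1680 counts and followed Rian. It stood at 6.30 ± 0.385 CPM (n = 3) in VT cells, 9.57 ± 0.718 CPM in LAMP2A cells and 3.86 ± 0.382 CPM in treated cells. The 15 rows between Meg3 and Rian totalled 12, 27 and 10 counts in these groups, and the 26 rows between Rian and Mirg 4, 14 and 2. The 2 rows inside Meg3 had no count.

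The groups also differed in cell type markers, and their part in the changes of the domain was not tested. In bulk RNA, fewer cells of a type and less RNA per cell cannot be told apart. Beside the marker counts below, 43% of all tested genes were higher and 42.1% lower in LAMP2A cells than in VT cells. The summed level of 5 ES cell markers (Pou5f1, Sox2, Nanog, Zfp42 and Esrrb) was 4810 to 5041 CPM in VT cells, 1223 to 1233 CPM in LAMP2A cells and 3932 to 3961 CPM in treated cells, and all 5 were lower in LAMP2A cells than in VT cells. Of 8 trophoblast markers 7 were tested and all 7 rose in LAMP2A cells, with summed levels of 76.6 to 81.5, 1217 to 1232 and 106.2 to 110.9 CPM in the 3 groups. Elf5, a defining trophoblast factor, had 2 counts over the 3 LAMP2A libraries and none elsewhere. The keratin genes Krt8 (619.3 CPM) and Krt18 (461.6 CPM) made up most of the LAMP2A sum. Of 8 extraembryonic endoderm markers 7 rose and 1 fell, with sums of 29.5 to 32.1, 266.0 to 267.1 and 52.5 to 55.6 CPM, and Afp had no count in VT cells. Of 10 fibroblast markers 7 were tested, of which 6 rose and 1 fell, with sums of 8.60 to 9.71, 125.6 to 127.6 and 6.99 to 10.5 CPM. Fap had no count in VT cells and LAMP2A, nor Lum in VT cells.

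The genes on either side did not move as a block with the domain. Of 22 flanking genes 21 were tested. In LAMP2A against VT 9 rose, 8 fell and 4 did not pass, near the 43% and 42.1% of all tested genes that rose and fell. Their median log2 fold change was 0.06, with a range from -1.52 to 3.38. In treated cells against LAMP2A 9 were higher (41.1% of all tested genes were), 8 lower (42.1% were) and 4 not called (median 0.02). Against VT 8 were higher and 4 lower (29.3% of all tested genes each), and 9 were not called (median 0.07). Begain, the nearest listed gene before Dlk1, stood at 2.38 ± 0.238 CPM in VT cells, 2.49 ± 0.144 CPM in LAMP2A cells and 4.35 ± 0.602 CPM in treated cells. It did not pass between LAMP2A and VT (log2 0.06, edgeR adjusted p = 0.693) and was higher in treated than in LAMP2A cells (log2 0.82, edgeR adjusted p = 3.19e-07), the direction opposite to that of the domain. Ppp2r5c, a phosphatase subunit gene and the nearest listed gene after Dio3, was lower in LAMP2A cells (log2 -0.28) and higher in treated cells (log2 0.24).

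Some flanking genes further out changed strongly. Eml1, a microtubule-associated protein gene that starts 1170 kb before Meg3, rose 10.4-fold in LAMP2A cells and was 4.10-fold lower in treated cells, with 2.87 ± 0.717, 29.8 ± 0.894 and 7.27 ± 0.238 CPM in the 3 groups (n = 3). Evl, an actin regulator, rose 2.52-fold and was 2.45-fold lower in treated cells. Hsp90aa1, a chaperone gene, went the other way, 2.13-fold lower in LAMP2A cells and 2.17-fold higher in treated cells. Mok, a protein kinase gene, was 4.79-fold higher in treated cells than in LAMP2A cells, where it was lowest (18.3 ± 0.874, 6.41 ± 0.794 and 30.5 ± 0.240 CPM in VT, LAMP2A and treated cells). All of these passed edgeR's test.

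**Figure D4:**
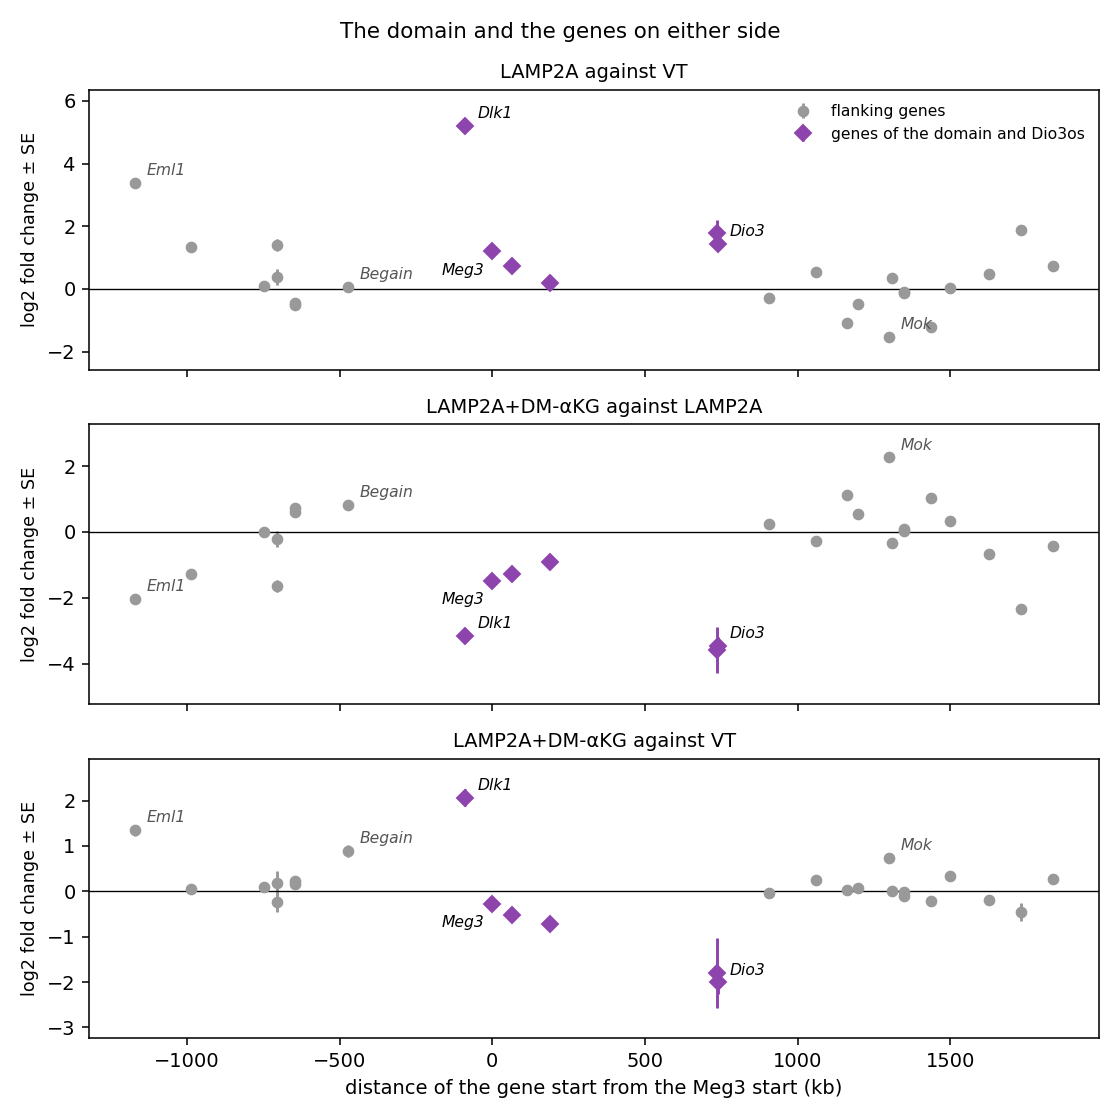
Log2 fold change with its SE (vertical axes) against the distance of the gene start from the Meg3 start in kb (horizontal axis), for the tested genes of the domain with Dio3os (diamonds) and 21 flanking genes (circles), 1 panel per comparison. In LAMP2A against VT all diamonds lie above 0 (0.20 to 5.20), while the flanking genes lie on both sides (-1.52 to 3.38). The inner rows 6430411K18Rik (log2 -1.23), AF357359 (0.61) and Mir3072 (0.92) are not plotted.

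Imprinted genes elsewhere in the genome had a larger median change than the domain. Of 27 listed 25 were tested. In LAMP2A cells 22 rose (43% of all tested genes did), 1 fell (42.1% did) and 2 did not pass. Their median log2 fold change was 3.74 against 1.20 for the 5 genes of the domain. In treated cells 23 were lower than in LAMP2A cells (42.1% of all tested genes were) and 1 was higher (41.1% were), with medians of -3.25 against -1.48. Against VT 12 were higher and 4 lower (29.3% of all tested genes each), and 9 were not called (median 0.30 against -0.53). These medians are a description with no test of the difference. Igf2, a fetal growth factor, went from 0.710 ± 0.256 CPM in VT cells to 1762 ± 15.7 CPM in LAMP2A cells and 2.44 ± 0.182 CPM in treated cells. H19, the noncoding RNA imprinted with Igf2, had 8 counts in VT cells, 10097 in LAMP2A cells and 13 in treated cells.

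Regulators of imprints were mostly lower in LAMP2A cells. Of 19 listed 18 were tested, and 3 rose (43% of all tested genes did), 14 fell (42.1% did) and 1 did not pass. Their median log2 fold change was -0.48, with a range from -2.51 to 3.94, so that some falls were larger than those named below. In treated cells 12 were higher than in LAMP2A cells (41.1% of all tested genes were), 4 lower (42.1% were) and 2 not called (median 0.30). Against VT 2 were higher and 13 lower (29.3% of all tested genes each), and 3 were not called (median -0.20). Aff3, a protein that binds the imprinting control region of the domain, rose 15.4-fold in LAMP2A cells and was 23.7-fold lower in treated cells, with 2.83 ± 0.0468, 43.5 ± 0.467 and 1.81 ± 0.249 CPM in the 3 groups (n = 3). The de novo methyltransferase gene Dnmt3a was 3.66-fold lower in treated cells than in LAMP2A cells and 1.94-fold lower than in VT cells, at 59.7 ± 1.45, 113.1 ± 1.57 and 30.9 ± 1.51 CPM. Dnmt3l, its cofactor, was 2.35-fold lower in LAMP2A cells and 2.31-fold lower in treated cells than in VT cells. Zfp57, a zinc finger protein that keeps imprints methylated, stood at 891.3 ± 13.2 CPM in VT cells, 476.1 ± 4.03 CPM in LAMP2A cells and 867.7 ± 6.59 CPM in treated cells. Eed, a subunit of the Polycomb complex PRC2, was 2.31-fold lower in LAMP2A cells than in VT cells. DNA methylation of the domain was not measured in these libraries.

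Genes that act with the encoded proteins changed in both directions, as tested genes did as a whole. Of 20 Notch pathway genes and DLK1 partners 17 were tested. In LAMP2A cells 10 were higher (43% of all tested genes were), 6 lower (42.1% were) and 1 not called (median log2 0.75). In treated cells against LAMP2A 4 were higher (41.1% of all tested genes were) and 9 lower (42.1% were), with a median of -0.53. Against VT 9 were higher and 2 lower (29.3% of all tested genes each), with a median of 0.21. Sox9, a transcription factor acting with DLK1 in adipocyte precursors, rose 117-fold in LAMP2A cells from 12 counts in VT cells. Jag1, a Notch ligand, rose 3.95-fold, the receptor gene Notch3 rose 2.89-fold and Notch4 was 3.88-fold lower. Fn1, encoding fibronectin, which binds DLK1, was 1.46-fold higher in treated cells than in VT cells. It was highest in LAMP2A cells, with 1170 ± 117, 2944 ± 10.4 and 1708 ± 49.1 CPM in VT, LAMP2A and treated cells.

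Of 14 genes of thyroid hormone metabolism, transport and response, in which Dio3 acts, 11 were tested. In LAMP2A cells 4 were higher (43% of all tested genes were), 6 lower (42.1% were) and 1 not called (median log2 -0.36). In treated cells 7 were higher (41.1% of all tested genes were) and 3 lower (42.1% were), with a median of 0.28. Against VT 4 were higher and 2 lower (29.3% of all tested genes each), with a median of 0.01. Slc7a5, an amino acid transporter that also carries thyroid hormone, was 1.77-fold lower in LAMP2A cells and 2.29-fold higher in treated cells. The receptor gene Thra was 1.85-fold higher in treated cells than in VT cells. It stood at 11.0 ± 0.403 CPM in VT cells, 22.1 ± 0.590 CPM in LAMP2A cells and 20.4 ± 0.189 CPM in treated cells, so that untreated LAMP2A cells were already above VT. The other deiodinase genes, Dio1 and Dio2, had at most 4 counts in any group, and were named after their values were seen.

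Of 10 genes derived from the same retrotransposon family as Rtl1, 7 were tested. All 7 rose in LAMP2A cells (43% of all tested genes did), with a median log2 of 2.20. All 7 were lower in treated cells than in LAMP2A cells (42.1% of all tested genes were), with a median of -2.10. Against VT 2 were higher and 1 lower (29.3% of all tested genes each), and 4 were not called (median -0.07). Peg10, itself imprinted, was by far more abundant than Rtl1, at 217.5 ± 15.7, 2996 ± 13.5 and 281.5 ± 4.17 CPM in the 3 groups (n = 3). Rgag4, an older name of Rtl5, rose 17.5-fold from 6 counts in VT cells. Of 12 genes that process microRNAs and box C/D snoRNAs, 4 rose (43% of all tested genes did) and 7 fell (42.1% did) in LAMP2A cells, none by 2-fold. Dicer1, which cuts microRNA precursors, rose 1.60-fold, and Nop56, a core snoRNA protein gene, was 1.57-fold lower. In treated cells 6 of these 12 were higher than in LAMP2A cells (41.1% of all tested genes were) and 3 lower (42.1% were). Against VT 4 were higher and 5 lower (29.3% of all tested genes each).

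Genes with the profile most like each gene of the domain were ranked by Pearson's r of log2 CPM over the 9 libraries among 10397 genes. The r values are a description: the libraries fall into 3 groups, so that r mainly compares 3 group levels, and it was above 0.95 for 1325 genes with Dlk1, 1275 with Meg3, 540 with Rian, 181 with Dio3 and 88 with Mirg. The 5 closest to Dlk1 were Vopp1, H6pd, Tcf25, Eml1 and Rnf130 (r 0.998 each), among them Eml1 of the flanking genes. Vopp1 stood at 1.97 ± 0.261 CPM in VT cells, 9.64 ± 0.234 CPM in LAMP2A cells and 3.62 ± 0.100 CPM in treated cells, the order seen for Dlk1. Closest to Meg3 were Fstl1, Gja1, Zfp36l1, Dennd2a and Chd3 (r 0.999 each), and closest to Rian were Tmsb4x, Arhgef25, Eif4g3, Actn4 and Etv6 (r 0.998 each). Mirg was closest to Commd6 (r 0.994), Atg3, Ndufa11, Cldn4 and Ifitm1, and Dio3 to Mtus2 (r 0.991), Dgkk, Ipo13, Dusp6 and Mvp.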

How the data were processed

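RNA sequencing counts of 9 libraries, 3 per group by the treatment label, were used. The authors deposited whole-number counts for each gene symbol, not normalized. Per the submitters' processing notes STAR 2.7.1, HTSeq 0.11.2, DESeq2 and build mm10 were used; which annotation and strand setting the counting had is not given in the sources used here. Per the file headers, the authors' deposited comparison tables hold a mean signal, a log2 fold change with its error, a test score and a p-value per gene; only log2 fold changes and adjusted p of Rtl1 were printed from them.

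The test was edgeR's quasi-likelihood test (edgeR 4.0.16 in R 4.3.3, with TMM factors, filterByExpr, robust glmQLFit, glmQLFTest, limma 3.58.1 loaded), with all 9 libraries in a model of 3 group means and 6 residual degrees of freedom. A gene was called at a Benjamini-Hochberg adjusted p under 0.05 over 14513 genes. At a common biological coefficient of variation of 2.74% even small changes could pass. SE is the Wald error of the log2 fold change at the fitted means, kept at or above counting error. CPM are counts over the TMM-scaled library total. Ratios within a library had 0.5 added to each count and were compared by an exact permutation test. Replicate libraries had chi-square values of 1.19 to 5.66 per degree of freedom, above sampling noise, and were kept apart.

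The 6 genes, the gene lists and the marker lists were chosen with earlier results of these data known, and none is independent evidence of a direction. Named genes were the 6 genes, up to 4 genes per list with the smallest p in a comparison and the 5 genes most like each tested gene (mean of at least 5 CPM, prior count 1, no predicted or clone symbols); flanking neighbours, deposited small RNA rows and low-count genes named outside this rule were chosen after their values were seen. Of 166 list entries 153 matched by symbol and 9 by an older symbol. The other 4 (Rtl1as, B830012L14Rik, Mico1 and Mico1os) were not matched and not analysed under these names. The row 6430411K18Rik, with the RefSeq synonym PEG11as, was analysed as a row inside Rtl1. DESeq2 1.42.0, RLE factors, other filters, fits of only 2 groups, the replicate number as a block and leaving out each library were alternatives. 1 gene that the rule would name is not reported here, for a reason that does not concern its values.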

Additional observations from a re-analysis of the deposited data

How the results depend on the processing

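Of 177 recomputed fold changes of the tested genes (DESeq2, RLE factors, no filter, a mean of at least 5 CPM, only the 2 groups compared, the replicate block, and each library left out), 176 kept their sign and their side of the threshold. The exception was Mirg in LAMP2A against VT without VT replicate 3, at log2 0.12 (edgeR adjusted p = 0.0813); leaving out any 1 library gave 0.12 to 0.32, and the other settings 0.20 to 0.26 with adjusted p from 6.36e-04 to 0.0177 (edgeR and DESeq2). The cause was not tested. With a mean of at least 5 CPM Dio3 was not tested, and with DESeq2 or no filter Rtl1 passed in the 2 comparisons that involve LAMP2A. Without any 1 library the log2 ratio difference of LAMP2A and VT stayed between -0.47 and -0.44 for Rian over Meg3, -1.06 and -0.87 for Mirg over Meg3, and 3.84 and 4.21 for Dlk1 over Meg3, ranges that include adding 0 or 1 to each count. Genes called numbered 12355, 12081 and 8517 in the 3 comparisons and 9386 to 13179, 9206 to 12820 and 7031 to 8561 under the alternatives. Same-numbered libraries did not deviate together (correlations from -0.11 to 0.14), and the fit with the replicate block called 12341, 12065 and 8462 genes and the same number of genes of the domain, 5 in each comparison. Depth limits Rtl1, most microRNA rows and Dio3os, whose values rest on few counts.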
